A study of Mus musculus with 15 samples.

Results

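Hindbrain tissue was compared with alar plate tissue in 6 of 15 RNA-seq libraries of the embryonic mouse brain, 3 libraries from each tissue. The members are the libraries that the labels place in either tissue. All embryos, in both groups, were of the C57bl/6 strain at stage E12.5 and expressed green fluorescent protein from the promoter of Th, the gene of tyrosine hydroxylase, which begins dopamine synthesis. Tissue was dissected under a microscope, RNA was isolated with Trizol, and 200 ng went into each library. The labels give no treatment, no mutation and no sort of the fluorescent cells, and they do not say along which stretch of the brain the alar plate was taken. The labels do not say that the 3 libraries of a tissue came from separate embryos, so a p-value measures the spread between these libraries. In each tissue library 3 held Y-linked reads and libraries 1 and 2 next to none, so the 3 cannot all come from the same embryo. The spread between libraries 1 and 2 may be technical.

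The neural tube is divided along its height into a dorsal part, the alar plate, and a ventral part, the basal plate, with the floor plate at the ventral midline. The floor plate secretes sonic hedgehog and netrin, which pattern ventral cells and guide axons. The hindbrain lies behind the midbrain, lacks Otx2, and behind its first segment expresses Hox genes, and near its floor plate the serotonergic neurons of the raphe are born. In the alar plate of the midbrain the optic tectum forms, and in that of the diencephalon the pretectum and the thalamus.

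Expression is given as RPKM, the number of reads on a gene model relative to its length and to the depth of the library. Of the 24264 genes in the table, 13024 reached 1 RPKM in at least 3 of the 6 libraries and were tested with limma on log2(RPKM + 1), a scale that understates the change of weakly expressed genes. A gene was called at a Benjamini-Hochberg adjusted p under 0.05, two-sided. Every log2 difference below is hindbrain minus alar plate on this scale, followed by its standard error.

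Alar plate 3 stood apart from the other alar plate libraries before any comparison of the tissues. The 6 libraries held 9047687 to 12440087 reads recovered from the RPKM values. Across the genes tested, Pearson r on the log2 scale was 0.983 to 0.994 among hindbrain libraries, 0.989 between alar plate 1 and 2, and 0.923 and 0.921 between alar plate 3 and those libraries. In alar plate 3 the median RPKM of the shortest 25% of genes was 2.95 times that of the longest 25%, against 1.07 to 1.19 times in the other 5 libraries. Alar plate 3 exceeded both other alar plate libraries by over 1 on the log2 scale at 482 genes and lay as far below both at 997 genes. Hindbrain 1 lay apart from hindbrain 2 and 3 to a lesser degree, above both at 29 genes and below both at 34. Results that rest on alar plate 3 are given with and without it.

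**Figure D1:**
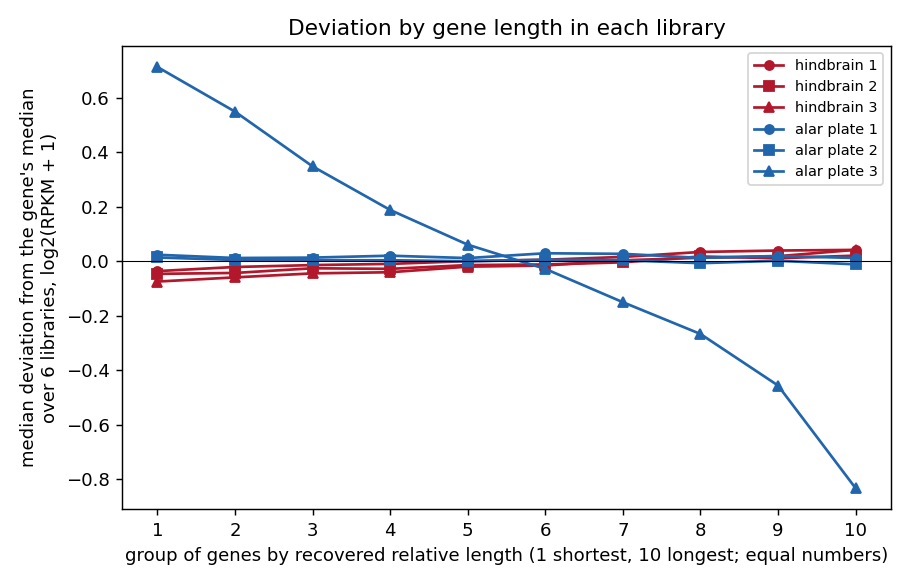
Median deviation of genes from their median over the 6 libraries, on the log2(RPKM + 1) scale (y axis), in 10 equal groups of genes from shortest to longest by recovered relative length (x axis), with 1 line per library. The lines of 5 libraries stay near 0, while alar plate 3 runs from above 0 in the shortest genes to below 0 in the longest.

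Of the 13024 genes, 597 were called, which is 4.58%, and 450 of them (3.46% of genes tested) were higher in hindbrain while 147 (1.13%) were lower. All 597 had 3 hindbrain libraries on one side of the 3 alar plate libraries, as did 5167 genes in all (39.7%). Without alar plate 3 the number called was 2520 (19.3%), 1368 higher (10.5%) and 1152 lower (8.85%), and the 597 genes were all among them. Without hindbrain 1, 2 or 3 it was 331, 158 or 127, and without alar plate 1 or 2 it was 265 or 305. After each library was corrected for its trend with gene length, 945 genes were called (7.26%), 652 higher (5.01%) and 293 lower (2.25%), and 530 of the 597 were among them. The median difference of all genes tested was -0.004, against -0.02 without alar plate 3.

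**Figure D2:**
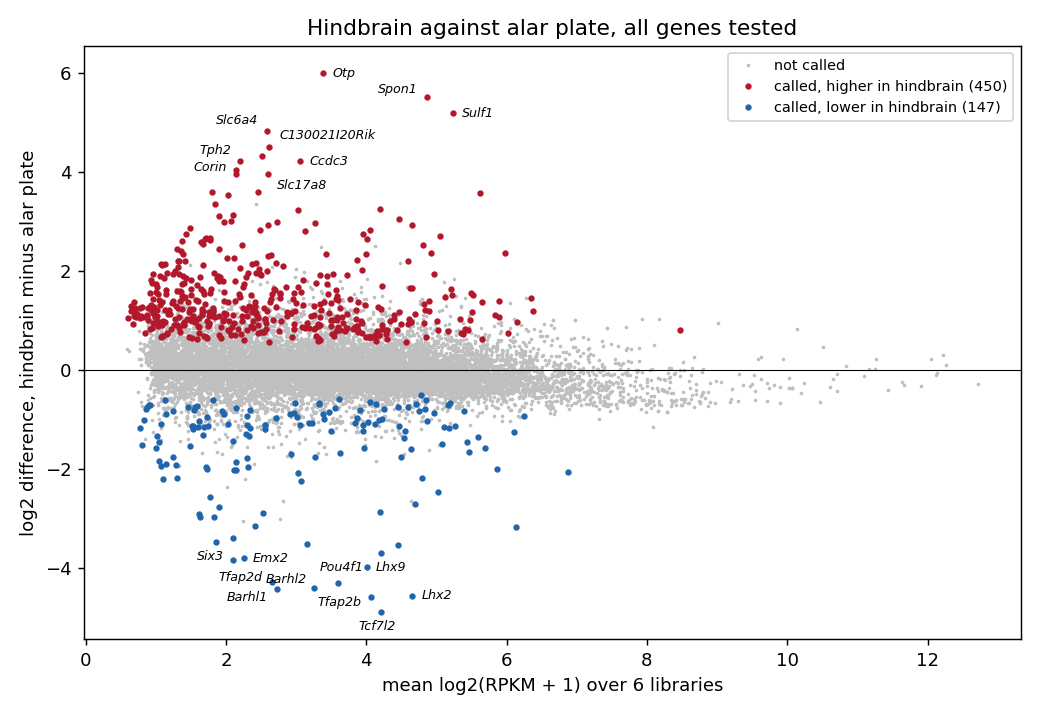
Log2 difference, hindbrain minus alar plate (y axis), against mean log2(RPKM + 1) over the 6 libraries (x axis), with 1 point per gene tested and the names of 9 of the 10 highest and of the 10 lowest called genes whose groups did not overlap and whose higher group averaged at least 5 RPKM. The 450 genes called higher in hindbrain reach a log2 difference of 6.01 at Otp, and the 147 called lower reach -4.90 at Tcf7l2.

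Described here are 9 of the 10 highest and the 10 lowest differences among called genes whose groups did not overlap and whose higher group averaged at least 5 RPKM. The highest was Otp, a homeobox factor of hypothalamic and hindbrain neurons. Otp had 57.8, 103 and 95.6 RPKM in hindbrain 1, 2 and 3, against 0.973, 0.125 and 0 RPKM in alar plate 1, 2 and 3. The difference was 6.01 (SE 0.33, adjusted p = 0.000598). Spon1, which encodes the floor plate matrix protein F-spondin, had 253, 160 and 187 RPKM in hindbrain and 5.94, 4.60 and 1.01 RPKM in alar plate (5.53, SE 0.47, adjusted p = 0.0031). Sulf1, a sulfatase that trims heparan sulfate chains and is expressed in the floor plate, had 310, 178 and 208 RPKM in hindbrain and 6.68, 3.68 and 5.67 RPKM in alar plate (5.19, SE 0.27, adjusted p = 0.000534). Hindbrain 1 held the highest value of both matrix genes.

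Others of the highest genes were Slc6a4, C130021I20Rik, Tph2, Ccdc3, Corin and Slc17a8, with differences between 3.96 and 4.82. Slc17a8, the vesicular glutamate transporter VGLUT3 that raphe neurons also use, had 24.0, 18.8 and 26.3 RPKM in hindbrain and 0.161, 0.141 and 1.72 RPKM in alar plate (3.96, SE 0.36, adjusted p = 0.00367). Corin, a membrane serine protease known as a marker of the midbrain floor plate, had 21.4, 14.5 and 15.8 RPKM in hindbrain and 0.129, 0.047 and 0.0762 RPKM in alar plate (4.05, SE 0.17, adjusted p = 0.000375). C130021I20Rik, a transcript that neighbours Lmx1b in RefSeq, averaged 28.6 ± 5.9 RPKM in hindbrain and 0.285 ± 0.194 RPKM in alar plate (SD, n = 3 each), and Ccdc3 averaged 35.2 ± 4.93 RPKM in hindbrain and 0.962 ± 0.43 RPKM in alar plate. The 9 genes named kept the call under each of the 18 alternative settings tried, those that leave out 1 library included.

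At the other end stood transcription factors of dorsal and diencephalic neurons, led by Tcf7l2, a Wnt effector of thalamus, pretectum and tectum. Tcf7l2 had 3.62, 1.85 and 1.93 RPKM in hindbrain, against 57.9, 80.4 and 215 RPKM in alar plate (-4.90, SE 0.48, adjusted p = 0.00456). Lhx2, a LIM homeobox factor of forebrain and dorsal midbrain, had 4.94, 5.83 and 2.45 RPKM in hindbrain and 107, 121 and 141 RPKM in alar plate (-4.56, SE 0.27, adjusted p = 0.000697). Its relative Lhx9 had 4.18, 2.74 and 2.41 RPKM in hindbrain and 64.3, 75.3 and 52.6 RPKM in alar plate (-3.99, SE 0.21, adjusted p = 0.000534). Groups without overlap were a condition for choosing all 3 genes. Alar plate 3 was the highest alar plate library for Tcf7l2 and the lowest for Lhx9.

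Barhl1 and Barhl2, homeobox factors of the dorsal neural tube and diencephalon, were also low in hindbrain. Barhl1 had 0.752, 0.27 and 0.299 RPKM in hindbrain and 33.6, 43.8 and 17.5 RPKM in alar plate (-4.43, SE 0.34, adjusted p = 0.00221). Barhl2 had 2.28, 0.424 and 0.873 RPKM in hindbrain and 41.6, 53.5 and 35.8 RPKM in alar plate (-4.42, SE 0.32, adjusted p = 0.002). Pou4f1, the sensory and tectal neuron factor Brn3a, had 4.39, 0.876 and 0.999 RPKM in hindbrain and 60.2, 74.8 and 33.3 RPKM in alar plate (-4.31, SE 0.48, adjusted p = 0.00686). In these genes hindbrain 1 was the highest hindbrain library and alar plate 3 the lowest alar plate library.

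The AP-2 factors Tfap2b and Tfap2d, which mark tectal neurons, followed the same order with more spread. Tfap2b had 7.07, 1.42 and 1.01 RPKM in hindbrain and 113, 149 and 31.3 RPKM in alar plate (-4.59, SE 0.73, adjusted p = 0.0221). Tfap2d had 1.24, 0.0924 and 0.176 RPKM in hindbrain and 41.5, 51.5 and 8.84 RPKM in alar plate (-4.30, SE 0.66, adjusted p = 0.0193). The call of Tfap2b was lost without hindbrain 2, hindbrain 3, alar plate 1 or alar plate 2 (adjusted p 0.0632 to 0.11), and that of Tfap2d without any library other than alar plate 3 (0.0509 to 0.105). Six3, a homeobox factor of the anterior forebrain, averaged 0.133 ± 0.0597 RPKM in hindbrain and 16.1 ± 6.37 RPKM in alar plate, and Emx2, a factor of dorsal forebrain and midbrain, averaged 0.301 ± 0.291 RPKM in hindbrain and 17.6 ± 5.71 RPKM in alar plate (SD, n = 3 each). The differences were -3.85 for Six3 (SE 0.26, adjusted p = 0.0014) and -3.81 for Emx2 (SE 0.29, adjusted p = 0.00221). Six3 neighbours an antisense gene, Six3os1, and whether counting used strand is not given in the sources used here, so reads of the pair cannot be told apart.

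**Figure D3:**
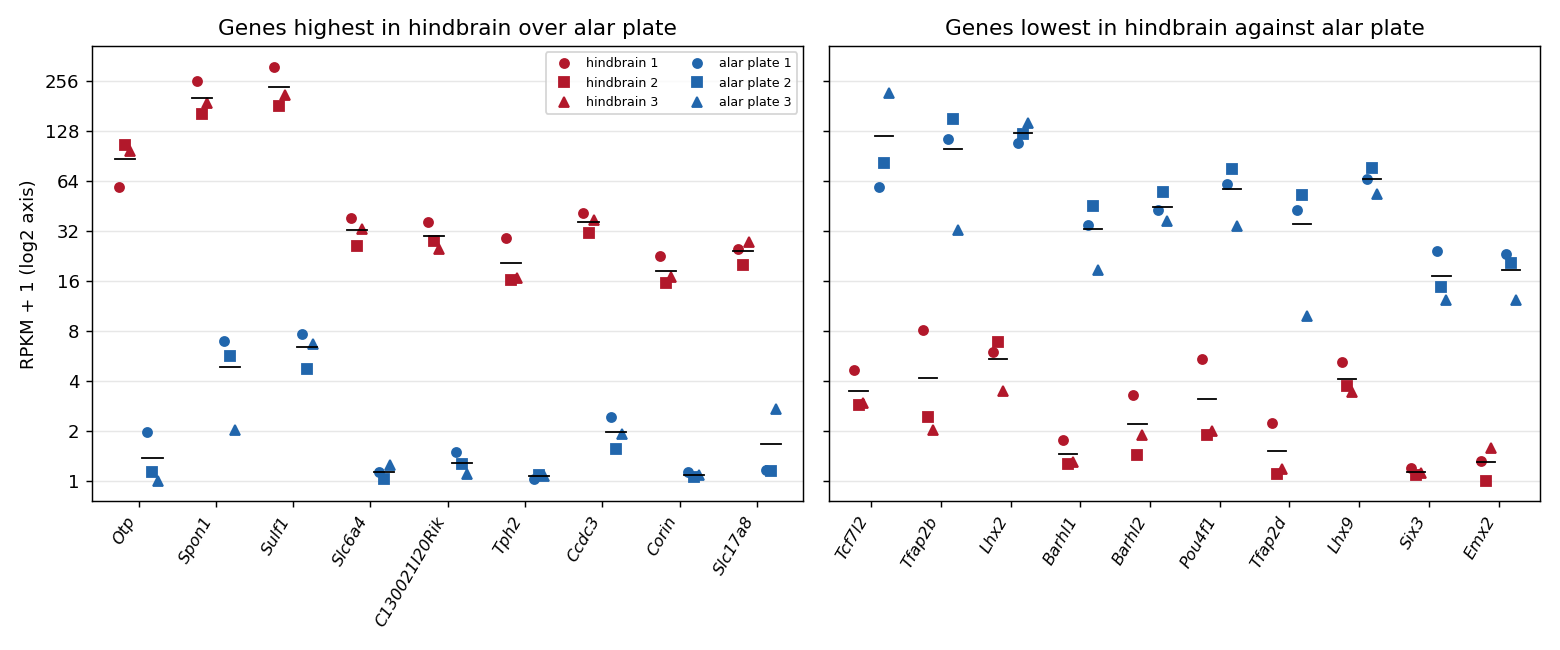
RPKM + 1 on a log2 axis (y) of 9 of the 10 genes with the highest (left) and the 10 with the lowest (right) log2 difference among called genes with a group mean of at least 5 RPKM, with 1 point per library, hindbrain left of alar plate, and a line at the group mean. Groups without overlap were a condition for choosing these genes, and Tfap2b and Tfap2d show the widest spread on the right.

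Gene lists of cell types, regions and pathways were described next by the number of members called. A member under 1 RPKM in every library of a tissue passed the filter only through the other tissue. Its groups could not overlap, so these counts describe the lists without supporting them. The shares over all genes, to set beside every list, were 3.46% called higher and 1.13% lower. They were 11.8% and 9.1% at an unadjusted p under 0.05, and 3.16% and 1.12% with limma voom on recovered reads. Without alar plate 3 limma called 10.5% higher and 8.85% lower. In bulk tissue, fewer cells of a type and less RNA per cell cannot be told apart.

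Genes of serotonergic neurons were higher in hindbrain. Of 17 members measured, 16 were tested, and 10 were called higher and 0 lower, against 3.46% and 1.13% of all genes. Alar plate 1, 2 and 3 held 7, 6 and 6 of the 17 at 1 RPKM or more. Hindbrain 1, 2 and 3 held 17, 16 and 16, so the limit of the filter covers much of this list. At an unadjusted p under 0.05 limma gave 14 members higher and 0 lower, against 11.8% and 9.1% of all genes. With limma voom on recovered reads 9 were higher and 0 lower, against 3.16% and 1.12% of all genes. The median difference of the tested members was 2.26, against -0.004 over all genes. The number called higher ran from 8, without hindbrain 2 or hindbrain 3, to 13, without alar plate 3.

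The synthesis and transport of serotonin were represented by Tph2, Ddc, Slc6a4 and Slc18a2. Tph2, the neuronal tryptophan hydroxylase that limits the rate of serotonin synthesis, had 27.8, 15.2 and 15.7 RPKM in hindbrain and 0.0269, 0.0884 and 0.0717 RPKM in alar plate. In recovered reads these were 796, 486 and 528 in hindbrain and 1, 3 and 2 in alar plate, and the difference was 4.22 (SE 0.24, adjusted p = 0.000599). Slc6a4, the plasma membrane serotonin transporter, had 37.3, 25 and 31.9 RPKM in hindbrain and 0.129, 0.0282 and 0.24 RPKM in alar plate (4.82, SE 0.18, adjusted p = 0.00024). Ddc, the decarboxylase shared by serotonin and dopamine synthesis, had 25.1, 9.75 and 10.7 RPKM in hindbrain and 1.07, 0.734 and 1.56 RPKM in alar plate (2.82, SE 0.36, adjusted p = 0.0107). All 3 were highest in hindbrain 1. Tph2 and Slc6a4 were under 1 RPKM in every alar plate library, so they passed the filter only through hindbrain and could not overlap.

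Slc18a2, the vesicular monoamine transporter, did not pass the test. It had 25.7, 20.7 and 23.8 RPKM in hindbrain, against 1.92, 1.30 and 11.2 RPKM in alar plate, with an adjusted p of 0.0788, and of 0.000209 without alar plate 3. Gch1 and Gchfr, the enzyme and the regulatory protein of tetrahydrobiopterin synthesis, the cofactor of Tph2, were both called, with averages of 3.41 ± 0.215 and 11.7 ± 1.73 RPKM in hindbrain and of 0.493 ± 0.187 and 0.455 ± 0.185 RPKM in alar plate (SD, n = 3 each). Their differences were 1.57 for Gch1 (SE 0.14, adjusted p = 0.00388) and 3.13 for Gchfr (SE 0.16, adjusted p = 0.000534).

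Of the transcription factors on this list, Fev and Lmx1b were called and Gata2 and Gata3 were not. Fev, the ETS factor Pet1 of serotonergic neurons, had 14.7, 8.92 and 10.4 RPKM in hindbrain and was listed at 0 in all 3 alar plate libraries (adjusted p = 0.000537). Lmx1b, a LIM homeobox factor needed for serotonergic neurons and also active in the ventral midbrain, had 14.8, 12.8 and 11.2 RPKM in hindbrain and 0.445, 0.183 and 0 RPKM in alar plate (3.54, SE 0.18, adjusted p = 0.000534). Gata3, a zinc finger factor of serotonergic and of GABAergic neurons, had 41.3, 27.1 and 32.8 RPKM in hindbrain and 44.5, 34.2 and 10.4 RPKM in alar plate, with overlapping groups and an adjusted p of 0.648. Gata2, a related factor, had 29.4, 24.1 and 27.4 RPKM in hindbrain and 20.9, 16.7 and 11.1 RPKM in alar plate (adjusted p = 0.141). Elsewhere in the series, ventral midbrain libraries averaged 9.97 ± 3.42 RPKM of Tph2 and 12.4 ± 3.27 RPKM of Fev (SD, n = 3).

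The promoters of the serotonergic trio Tph2, Fev and Slc6a4 are shown because these genes were near or at 0 in alar plate and rose together in hindbrain. The sequences are RefSeq's, of build GRCm38.p6, from 250 bases before to 50 bases after the gene's start, while the reads were aligned to mm9, so they carry no measured signal. Capitals mark matches on either strand to any of 4 short motifs, and no matches overlap here. The motif bound by GATA factors was searched as AGATAA. The core bound by many homeobox factors was searched as TAATTA. The motif bound by ETS factors was searched as CGGAAGT, and the TATA box as TATAAA.
Tph2, chr10:115184973-115185272, minus strand: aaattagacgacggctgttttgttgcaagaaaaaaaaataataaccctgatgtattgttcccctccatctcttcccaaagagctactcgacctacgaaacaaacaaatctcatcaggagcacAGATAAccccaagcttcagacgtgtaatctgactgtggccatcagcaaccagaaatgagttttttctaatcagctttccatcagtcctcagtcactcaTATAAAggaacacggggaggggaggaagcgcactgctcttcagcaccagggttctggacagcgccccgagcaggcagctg
Fev, chr1:74885359-74885658, minus strand: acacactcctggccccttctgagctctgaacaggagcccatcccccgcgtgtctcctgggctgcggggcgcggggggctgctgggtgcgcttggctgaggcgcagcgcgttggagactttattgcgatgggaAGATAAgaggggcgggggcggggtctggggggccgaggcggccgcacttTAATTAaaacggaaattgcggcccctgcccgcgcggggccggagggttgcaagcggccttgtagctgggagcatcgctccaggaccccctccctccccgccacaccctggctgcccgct
Slc6a4, chr11:76998347-76998646, plus strand: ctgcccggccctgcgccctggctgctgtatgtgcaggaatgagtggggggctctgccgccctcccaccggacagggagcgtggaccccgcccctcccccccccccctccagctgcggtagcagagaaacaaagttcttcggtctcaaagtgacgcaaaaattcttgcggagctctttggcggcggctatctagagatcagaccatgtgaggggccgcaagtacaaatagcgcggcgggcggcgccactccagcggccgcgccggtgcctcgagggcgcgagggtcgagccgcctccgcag
Tph2 held a GATA motif and a TATA box, Fev held a GATA motif and a homeobox core, and Slc6a4 held none of the 4. Among 32851 RefSeq promoters of the same length, 11.2% held the GATA motif, 5.29% the homeobox core, 6.42% the ETS motif and 13.6% the TATA box. A match in these windows is a description of letters only.

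Genes of the floor plate and of ventral progenitors were higher in hindbrain as well. Of 22 members, 17 were tested, and 11 were called higher and 0 lower, with a median difference of 2.92. Of all genes 3.46% were called higher and 1.13% lower. Limma at an unadjusted p under 0.05 gave 11 higher and 0 lower, against 11.8% and 9.1% of all genes. Limma voom called 10 and 0, against 3.16% and 1.12%. The number called higher ran from 8, without hindbrain 3, to 12, without alar plate 3. The summed RPKM of the list was 656 to 1147 in hindbrain libraries and 89.3 to 100.4 in alar plate libraries.

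Secreted guidance and patterning proteins made up much of this group. Ntn1, the axon attractant netrin-1, had 229, 135 and 156 RPKM in hindbrain and 17.5, 15.4 and 8.52 RPKM in alar plate (3.57, SE 0.31, adjusted p = 0.00324). Shh, the ventralizing morphogen sonic hedgehog, had 27.7, 13 and 16.6 RPKM in hindbrain and 0.186, 0.0871 and 2.12 RPKM in alar plate (3.59, SE 0.46, adjusted p = 0.0112), and its call was lost without hindbrain 3 (adjusted p = 0.0615). Slit1, a repellent of commissural axons, had 79.5, 57.8 and 69.8 RPKM in hindbrain and 9.12, 10.3 and 5.49 RPKM in alar plate (2.94, SE 0.24, adjusted p = 0.00278). As in every called gene, none of these overlapped between the tissues, and hindbrain 1 was the highest library for each. Slit2 and Slit3, the other members of the repellent family, were called higher too, at 42.4 ± 21.5 and 7.77 ± 0.365 RPKM in hindbrain against 5.01 ± 0.427 and 0.652 ± 0.511 RPKM in alar plate (SD, n = 3 each).

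The forkhead factors of the floor plate moved with these ligands. Foxa2, which is needed to form the floor plate, had 9.35, 4.79 and 6.30 RPKM in hindbrain and 0, 0.0722 and 0.0439 RPKM in alar plate (2.87, SE 0.22, adjusted p = 0.00239). Foxa1, its close relative, had 16.5, 8.26 and 9.42 RPKM in hindbrain and 0.112, 0.171 and 1.46 RPKM in alar plate (3.02, SE 0.38, adjusted p = 0.0104), and its call was lost without hindbrain 3 (adjusted p = 0.0569). Ferd3l, a basic helix-loop-helix factor of the ventral midline, averaged 11 ± 4.09 RPKM in hindbrain and 0.121 ± 0.106 RPKM in alar plate (SD, n = 3 each; 3.36, SE 0.25, adjusted p = 0.00221). Foxa2 and Ferd3l passed the filter only through hindbrain, so their groups could not overlap. Lmx1a, the midbrain floor plate factor, stayed under 1 RPKM in all 6 libraries and was not tested.

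Members of the hedgehog pathway were called in both directions. Of 13 tested, 2 were called higher, Shh and Hhip, and 2 lower, Gas1 and Boc, and the median difference was -0.12. Of all genes 3.46% were called higher and 1.13% lower. Ptch1, the hedgehog receptor and a target of the pathway, had 30.7, 26.0 and 27.0 RPKM in hindbrain and 15.5, 11.8 and 4.19 RPKM in alar plate, which did not overlap but missed the threshold (adjusted p = 0.112), while it passed without alar plate 3 (adjusted p = 0.00542). Gli1, a transcriptional target and effector, had 3.08, 2.11 and 1.96 RPKM in hindbrain and 4.29, 2.22 and 6.26 RPKM in alar plate (adjusted p = 0.318). The co-receptor Gas1 was called lower, at 1.03, 1.93 and 1.10 RPKM in hindbrain against 6.57, 7.64 and 8.29 RPKM in alar plate (-1.87, SE 0.18, adjusted p = 0.00456). The co-receptor Boc was called lower as well (-2.24, SE 0.39, adjusted p = 0.0286), and it lost the call without any library other than alar plate 3 (0.0687 to 0.139). Hhip, a target of the pathway that binds and restrains the ligand, was called higher (0.84, SE 0.16, adjusted p = 0.0383) at under 2 RPKM in every library, and it also lost the call without any library other than alar plate 3 (adjusted p 0.0841 to 0.177). The number called, 4, was 10 without alar plate 3, with 4 higher and 6 lower, and between 1 and 2 without any other single library. Without alar plate 3 the shares of all genes were 10.5% higher and 8.85% lower.

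Axon guidance genes were called in both directions, 10 higher and 3 lower of 44 tested, against 3.46% and 1.13% of all genes. The median difference of 0.40 was 0.09 without alar plate 3. Beside the netrin and slit ligands, Nrp2, a receptor for class 3 semaphorins, had 41.7, 41.6 and 47.0 RPKM in hindbrain and 5.32, 4.67 and 5.85 RPKM in alar plate (2.82, SE 0.12, adjusted p = 0.000375). Its values were even within each tissue. Efnb3, the ephrin ligand of the neural midline, had 132, 112 and 130 RPKM in hindbrain and 50.3, 52.2 and 58.6 RPKM in alar plate (1.20, SE 0.13, adjusted p = 0.00552), with the call lost without hindbrain 3 (adjusted p = 0.0532). Unc5b, a repulsive netrin receptor, was called lower, at 2.25, 3.51 and 4.23 RPKM in hindbrain against 16.2, 10.9 and 11.7 RPKM in alar plate (-1.70, SE 0.23, adjusted p = 0.0133), with the call lost without hindbrain 2 (adjusted p = 0.0686). The counts ran from 5 higher and 1 lower without hindbrain 3, through 7 higher and 0 lower without hindbrain 2, to 14 higher and 10 lower without alar plate 3.

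Transcription factors of hindbrain neurons were described by a list of 31, of which 22 were tested, 10 called higher and 0 lower, with a median difference of 1.26. Of all genes 3.46% were called higher and 1.13% lower. At an unadjusted p under 0.05 limma gave 13 higher and 1 lower, against 11.8% and 9.1% of all genes. Limma voom called 7 and 0, against 3.16% and 1.12%. Skor1, a corepressor of dorsal hindbrain and spinal interneurons, had 11.6, 8.88 and 9.89 RPKM in hindbrain and 0.0753, 0.165 and 1.15 RPKM in alar plate (2.99, SE 0.28, adjusted p = 0.00417). Lhx4, a LIM homeobox factor of motor neurons and V2 interneurons, had 7.31, 5.51 and 5.24 RPKM in hindbrain and 0.113, 0 and 0 RPKM in alar plate (2.75, SE 0.16, adjusted p = 0.000605). Pax2, a paired box factor of the isthmus and of inhibitory interneurons, had 1.98, 7.78 and 4.82 RPKM in hindbrain and 0.516, 0 and 0.0313 RPKM in alar plate (2.20, SE 0.40, adjusted p = 0.0337). Skor1 and Lhx4 were even across hindbrain, while Pax2 was lowest in hindbrain 1 and lost the call without hindbrain 2, hindbrain 3, alar plate 1 or alar plate 2 (adjusted p 0.0696 to 0.158). The number called higher was 5 without hindbrain 2 or hindbrain 3, 6 without alar plate 1 or alar plate 2, and 13 without alar plate 3, where 2 were called lower.

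Lbx1, Foxd3 and Slc6a5, genes of hindbrain interneurons, were lower in hindbrain 1 than in hindbrain 2 and 3. Lbx1, a homeobox factor of dorsal inhibitory interneurons, had 0, 7.79 and 2.02 RPKM in hindbrain and was listed at 0 in alar plate. Foxd3, a forkhead factor of neural crest and of V1 interneurons, had 1.61, 8.66 and 9.48 RPKM in hindbrain and 0.0594, 0 and 0.0791 RPKM in alar plate (2.62, SE 0.52, adjusted p = 0.0441). Its call was lost without hindbrain 2, hindbrain 3, alar plate 1 or alar plate 2 (adjusted p 0.102 to 0.179). Slc6a5, the glycine transporter of glycinergic neurons, had 0.144, 4.09 and 2.72 RPKM in hindbrain and 0.0554, 0.0607 and 0 RPKM in alar plate. Lbx1 and Slc6a5 did not reach 1 RPKM in 3 libraries and were not tested. Foxd3 passed the filter only through hindbrain, so its groups could not overlap.

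Markers of cranial motor neurons were sparse. Of 18 members, 8 were tested, 3 called higher and 1 lower, and the 3 higher, Lhx4, Nkx6-1 and Slit3, are also on the hindbrain neuron, floor plate or axon guidance lists. Of all genes 3.46% were called higher and 1.13% lower. Nkx6-1, a homeobox factor of ventral progenitors and motor neurons, had 23.7, 14.3 and 11.4 RPKM in hindbrain and 3.53, 1.06 and 0.155 RPKM in alar plate (2.92, SE 0.51, adjusted p = 0.0297), with the call lost without any hindbrain library or alar plate 2 (adjusted p 0.0816 to 0.124). Chat, the enzyme that makes acetylcholine, was under 0.3 RPKM in every library, with 0.0653, 0.293 and 0.0279 RPKM in hindbrain and 0 in alar plate. Dbh, the enzyme that makes noradrenaline, had 3.19, 1.61 and 0.511 RPKM in hindbrain and was listed at 0 in alar plate. Neither of these reached the filter. The counts called were 2 and 0 without hindbrain 3.

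Some midbrain dopaminergic genes were called. Of 20 members, 13 were tested, and 6 were called higher and 0 lower, namely Ddc, Lmx1b, Foxa2, Gch1, Nr4a2 and Drd2. Of all genes 3.46% were called higher and 1.13% lower. Limma at an unadjusted p under 0.05 gave 8 higher and 0 lower, against 11.8% and 9.1% of all genes. Limma voom called 4 and 0, against 3.16% and 1.12%. Ddc, Lmx1b and Gch1 are also on the serotonergic list and Foxa2 on the floor plate list. Th had 1.38, 2.30 and 1.66 RPKM in hindbrain and 2.96, 1.64 and 2.21 RPKM in alar plate, with overlapping groups (-0.23, adjusted p = 0.5). Slc6a3, the dopamine transporter, was under 0.05 RPKM in all 6 libraries, and Pitx3, a homeobox factor of midbrain dopaminergic neurons, was listed at 0 in hindbrain and had 1.34, 0.653 and 0 RPKM in alar plate. Nr4a2, the nuclear receptor Nurr1, had 5.99, 25.1 and 35.1 RPKM in hindbrain and 1.73, 0.979 and 1.39 RPKM in alar plate (3.0, SE 0.59, adjusted p = 0.0421). It lost the call without hindbrain 2, hindbrain 3, alar plate 1 or alar plate 2 (adjusted p 0.0988 to 0.179), and Drd2, a dopamine receptor of about 2 RPKM in hindbrain, lost it without any library other than alar plate 3 (0.0868 to 0.18). The number called was 4 without hindbrain 2, hindbrain 3, alar plate 1 or alar plate 2, and without alar plate 3 it was 7 higher and 1 lower.

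Genes that mark position along the brain varied within both tissues. Otx2, the factor of forebrain and midbrain that the hindbrain lacks, had 4.22, 4.07 and 9.07 RPKM in hindbrain and 82.8, 81.1 and 59.1 RPKM in alar plate (-3.53, SE 0.30, adjusted p = 0.00304). None of 22 Hox genes reached 1 RPKM in 3 libraries, and none was tested. Hoxa2, a gene of the second segment and behind, had 0.107, 11.1 and 6.24 RPKM in hindbrain 1, 2 and 3, and Hoxb2 had 0, 8.99 and 3.05 RPKM, while both were listed at 0 in every alar plate library. Hoxb3 had 0, 1.65 and 0.127 RPKM in hindbrain and was listed at 0 in alar plate. The summed RPKM of the 22 Hox genes was 0.705, 22.6 and 10.4 in hindbrain 1, 2 and 3 and at most 0.112 in an alar plate library. Hindbrain 1 thus held few Hox transcripts, while its Otx2 was close to that of hindbrain 2.

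Genes of the isthmus, the signalling centre between midbrain and hindbrain, did not share an order among the hindbrain libraries. Of 23 members of the boundary list, 18 were tested, and 2 were called higher, Lmx1b and Pax2, and 1 lower, Otx2, against 3.46% and 1.13% of all genes. The counts were 2 and 3 without alar plate 3, 1 and 2 without alar plate 1, and 1 and 1 without hindbrain 2, hindbrain 3 or alar plate 2. En1, an engrailed homeobox factor, had 39.7, 8.56 and 4.55 RPKM in hindbrain and 4.43, 2.79 and 0.405 RPKM in alar plate (2.08, adjusted p = 0.223). En2 had 37.0, 9.08 and 5.51 RPKM in hindbrain and 28.2, 18.7 and 5.32 RPKM in alar plate (-0.18, adjusted p = 0.895). Pax5 had 18.2, 4.76 and 3.41 RPKM in hindbrain and 16.8, 2.09 and 0 RPKM in alar plate (1.05, adjusted p = 0.555). En1, En2 and Pax5 were highest in hindbrain 1 among hindbrain libraries, while Pax2 and Gbx2 of the same list were lowest there, and En2 and Pax5 overlapped between the tissues. Fgf8, the secreted signal of the isthmus, was at most 0.12 RPKM in hindbrain and had 0.776, 0 and 1.52 RPKM in alar plate, and Egr2, a factor of a pair of hindbrain segments, was under 0.06 RPKM in all 6 libraries.

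Gbx2, a homeobox factor of the anterior hindbrain and of the thalamus, had 0.128, 7.44 and 7.47 RPKM in hindbrain and 0.0989, 0 and 73.0 RPKM in alar plate. Its mean difference was near 0 on the log2 scale (adjusted p = 0.999), with 1 library of each tissue apart from the other libraries, and without alar plate 3 it was 2.04 (adjusted p = 0.154). Meis2, a homeobox cofactor of Hox proteins, had 11.5, 106 and 78.6 RPKM in hindbrain and 39.9, 47.6 and 26.0 RPKM in alar plate (adjusted p = 0.802).

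**Figure D4:**
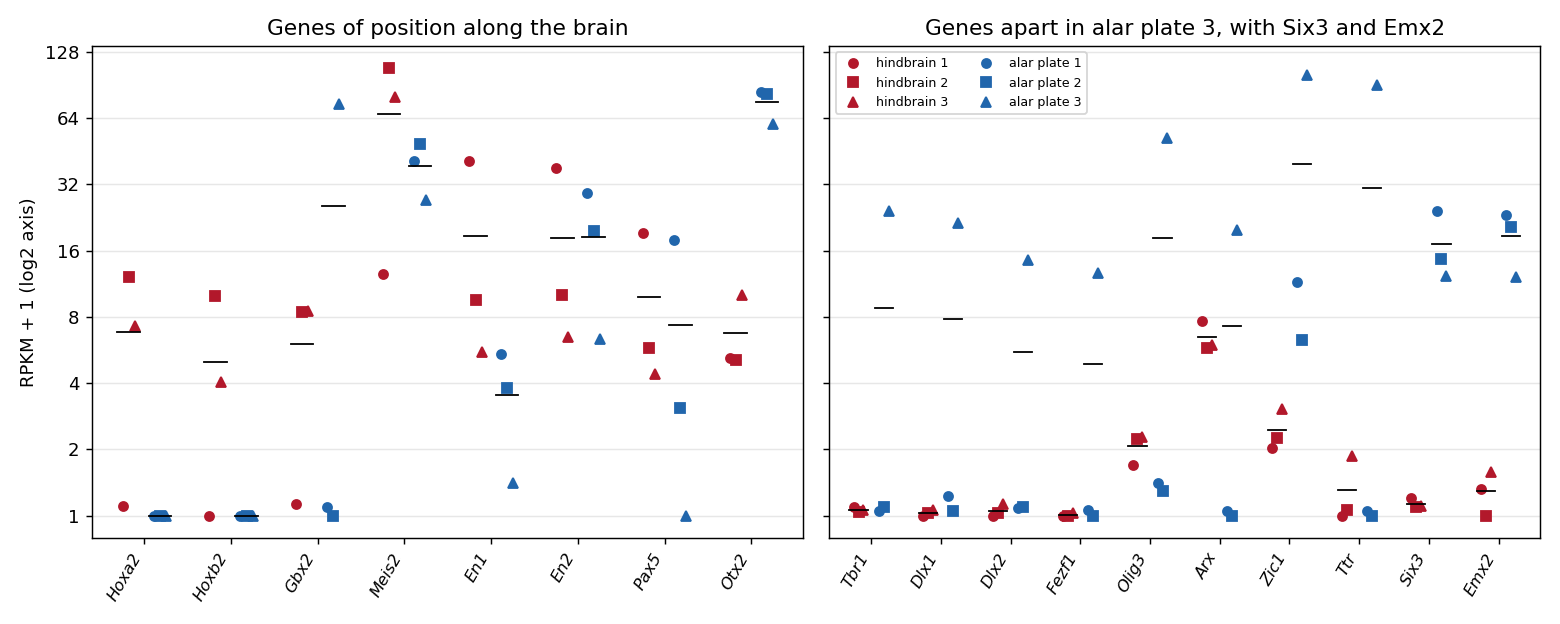
RPKM + 1 on a log2 axis (y) in each library, hindbrain left of alar plate, with a line at the group mean, for genes of position along the brain (left) and for genes in which alar plate 3 lay apart, with Six3 and Emx2 (right). Hoxa2 and Hoxb2 are seen in hindbrain 2 and 3 but not in hindbrain 1 or alar plate, and Tbr1, Dlx1, Dlx2, Fezf1 and Ttr stand high in alar plate 3 alone.

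Genes of the tectum and dorsal midbrain were lower in hindbrain, and of the 36 lists theirs had the most members called lower. Of 38 members, 36 were tested, and 18 were called lower and 0 higher, with a median difference of -2.29, or -2.16 with Pou4f3, listed at 0 in hindbrain, set to the value of 3 reads. Of all genes 1.13% were called lower and 3.46% higher. At an unadjusted p under 0.05 limma gave 24 lower and 1 higher, against 9.1% and 11.8% of all genes. Limma voom called 17 and 0, against 1.12% and 3.16%. The number called lower was 12 without hindbrain 2 or hindbrain 3. Without alar plate 3 it was 27, with 2 higher, against 8.85% and 10.5% of all genes. Dbx1, a homeobox factor of dorsal and intermediate progenitors, had 6.86, 6.35 and 4.47 RPKM in hindbrain and 58.9, 58.8 and 33.5 RPKM in alar plate (-2.87, SE 0.26, adjusted p = 0.00367). Gsx1, a homeobox factor of dorsal progenitors, had 0.457, 0.274 and 0.0866 RPKM in hindbrain and 8.78, 7.99 and 10.3 RPKM in alar plate (-2.98, SE 0.17, adjusted p = 0.000599). Bhlhe23, a basic helix-loop-helix factor, had 0.508, 0.163 and 0.309 RPKM in hindbrain and 12.4, 14.7 and 11.8 RPKM in alar plate (-3.40, SE 0.16, adjusted p = 0.000422). The hindbrain libraries lay below 7 RPKM for each of these and the alar plate libraries above 7, alar plate 3 included. Igfbpl1, which encodes a secreted protein related to IGF binding proteins, had 25.7, 26.4 and 16.5 RPKM in hindbrain and 145, 190 and 334 RPKM in alar plate (-3.17, SE 0.34, adjusted p = 0.00583).

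Not all dorsal genes passed. Pax7, a paired box factor of the dorsal midbrain, had 15.5, 4.35 and 2.39 RPKM in hindbrain and 13.5, 19.6 and 4.22 RPKM in alar plate (adjusted p = 0.503). Pax3, its relative, had 4.31, 3.14 and 1.37 RPKM in hindbrain and 10.4, 16.3 and 5.69 RPKM in alar plate (adjusted p = 0.109, and 0.0184 without alar plate 3). Zic1, a zinc finger factor of the dorsal neural tube, had 1.02, 1.26 and 2.04 RPKM in hindbrain and 10.5, 5.29 and 99.5 RPKM in alar plate (adjusted p = 0.155). Pax7 overlapped between the tissues through hindbrain 1 and alar plate 3, while Zic1 did not overlap but differed widely among alar plate libraries. Of the GABAergic neuron factors of the midbrain, Tal2 had 8.87, 2.61 and 2.80 RPKM in hindbrain and 101, 79.7 and 35.4 RPKM in alar plate (-3.70, SE 0.52, adjusted p = 0.0147), and its call was lost without hindbrain 2, hindbrain 3 or alar plate 1 (adjusted p 0.0506 to 0.0837). Helt, another factor of midbrain GABAergic neurons, had 0.117, 0.0523 and 0.149 RPKM in hindbrain and 8.41, 6.45 and 8.33 RPKM in alar plate (-2.97, SE 0.15, adjusted p = 0.000502).

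Forebrain genes were found in alar plate, and most of them in alar plate 3. Of 25 telencephalic genes, 6, 6 and 7 reached 1 RPKM in hindbrain 1, 2 and 3, and 8, 8 and 18 in alar plate 1, 2 and 3. The 3 of the 8 tested genes that were called lower in hindbrain were Lhx2, Six3 and Emx2, which were high in all alar plate libraries. Of all genes 1.13% were called lower. Tbr1, a factor of cortical and other forebrain neurons, was 23.2 RPKM in alar plate 3 and under 0.1 RPKM in the other 5 libraries. Dlx1 and Dlx2, homeobox factors of forebrain interneurons, were 20.2 and 13.5 RPKM in alar plate 3 and under 0.3 RPKM elsewhere among the 6. Ttr, which encodes transthyretin of the choroid plexus, was 89.3 RPKM in alar plate 3 and under 1 RPKM in the other 5. Diencephalic and hypothalamic genes were called in both directions, 2 higher, Otp and Lhx5, and 7 lower of 19 tested, against 3.46% and 1.13% of all genes. The counts were 4 and 9 without alar plate 3 and 1 and 6 without any other single library, where Lhx5, a LIM homeobox factor of inhibitory neurons, lost its call (adjusted p 0.0591 to 0.199).

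Members of the Wnt pathway were called in both directions, 3 higher and 8 lower of 33 tested, against 3.46% and 1.13% of all genes, with a median difference of -0.33. Among nuclear effectors, Lef1 joined Tcf7l2, with 2.27, 1.24 and 1.49 RPKM in hindbrain and 32.2, 46.0 and 16.6 RPKM in alar plate (-3.52, SE 0.36, adjusted p = 0.00552). Among receptors, Fzd10 had 0.616, 0.663 and 1.08 RPKM in hindbrain and 8.99, 17.7 and 20.6 RPKM in alar plate (-3.17, SE 0.30, adjusted p = 0.00418). Fzd1 had 12.8, 11 and 12.1 RPKM in hindbrain and 67.5, 75.5 and 38.2 RPKM in alar plate (-2.19, SE 0.26, adjusted p = 0.00801), with the call lost without hindbrain 2 or hindbrain 3 (adjusted p 0.054 and 0.0547). As in every called gene, groups did not overlap for any of these. Fzd7, in contrast, was called higher, at 16.3, 10.5 and 11.5 RPKM in hindbrain against 4.47, 4.99 and 3.86 RPKM in alar plate (1.32, SE 0.19, adjusted p = 0.0154), with the call lost without hindbrain 2, hindbrain 3 or alar plate 1 (adjusted p 0.0521 to 0.0802). Axin2, a feedback target of the pathway, had 4.89, 5.33 and 5.51 RPKM in hindbrain and 9.42, 11.4 and 16.7 RPKM in alar plate (-1.08, SE 0.21, adjusted p = 0.0388), with the call lost without any library other than alar plate 1 and alar plate 3 (adjusted p 0.0883 to 0.165). The count was 0 higher and 3 lower without hindbrain 2 or hindbrain 3, 1 and 6 without alar plate 1, 2 and 4 without alar plate 2, and 6 and 11 without alar plate 3.

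Most cell cycle genes had lower values in hindbrain, and 3 of 24 were called. All 24 members were tested, and 3 were called lower and 0 higher, against 1.13% and 3.46% of all genes. The median difference was -1.05, and 20 had all 3 hindbrain libraries below all 3 alar plate libraries, against 20.3% of all genes. At an unadjusted p under 0.05 limma gave 19 lower and 0 higher, against 9.1% and 11.8% of all genes. Limma voom called 3 lower and 0 higher, against 1.12% and 3.16% of all genes. Ccnd2, a D cyclin of neural progenitors, had 16.6, 7.21 and 6.24 RPKM in hindbrain and 105, 78.2 and 33.5 RPKM in alar plate (-2.70, SE 0.50, adjusted p = 0.0348). Ccnd1, the other D cyclin of progenitors, had 41.5, 22.5 and 25.9 RPKM in hindbrain and 80.1, 88.1 and 100.4 RPKM in alar plate (-1.59, SE 0.23, adjusted p = 0.0177). Both lost the call without hindbrain 2, hindbrain 3, alar plate 1 or alar plate 2 (adjusted p 0.0918 to 0.159 for Ccnd2 and 0.0537 to 0.105 for Ccnd1), and Mcm5, a replication helicase subunit, without any library other than alar plate 3 (0.0671 to 0.194). The replication clamp Pcna had 51.5, 37.3 and 37.1 RPKM in hindbrain and 62.9, 64.1 and 159 RPKM in alar plate (adjusted p = 0.194), and the proliferation marker Mki67 had 21.6, 11.4 and 13.5 RPKM in hindbrain and 26.6, 23.5 and 17.2 RPKM in alar plate with overlapping groups (adjusted p = 0.292). The number called lower was 0 without hindbrain 2, hindbrain 3, alar plate 1 or alar plate 2, 4 without hindbrain 1 and 10 without alar plate 3.

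Progenitor genes were called in both directions, and few pan-neuronal genes were called. Of 32 progenitor and radial glia genes, 3 were called higher and 3 lower, against 3.46% and 1.13% of all genes, with a median difference of -0.08. Without hindbrain 1 the counts were 2 and 3, without hindbrain 2 or hindbrain 3 they were 1 and 0, without alar plate 1 or alar plate 2 they were 1 and 1, and without alar plate 3 they were 7 and 7. Slc1a3, the glutamate transporter GLAST of radial glia, had 81.3, 62.6 and 60.8 RPKM in hindbrain and 15.9, 11.7 and 10.1 RPKM in alar plate (2.36, SE 0.20, adjusted p = 0.00304), and it was the one of the 6 called in every alternative fit. Of 32 pan-neuronal genes, 2 were called higher and 0 lower, against the same shares of all genes, with a median difference of 0.43. In 15 of them all hindbrain libraries lay above all alar plate libraries and in 1 all lay below, against 19.4% and 20.3% of all genes, and the counts called were 10 and 1 without alar plate 3 and 1 and 0 without hindbrain 3. Limma at an unadjusted p under 0.05 gave 12 higher and 1 lower, and limma voom called 2 and 0. Scg2, the granin secretogranin II of dense core vesicles, had 45.1, 57.0 and 67.5 RPKM in hindbrain and 3.78, 4.29 and 7.45 RPKM in alar plate (3.25, SE 0.26, adjusted p = 0.00255). Stmn2, a tubulin-binding protein of neurons, had 371, 431 and 407 RPKM in hindbrain and 357, 404 and 417 RPKM in alar plate, with overlapping groups (adjusted p = 0.879).

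Transmitter genes were called in both directions. Of 10 glutamatergic and glycinergic genes tested, 2 were called higher, Slc17a8 and Lmx1b, and 4 lower, and of 19 GABAergic genes 3 were called higher and 3 lower. To set beside these lists and the neuropeptides, 3.46% of all genes were called higher and 1.13% lower. The glutamatergic and glycinergic counts were 2 and 1 without hindbrain 2, hindbrain 3, alar plate 1 or alar plate 2, and 4 and 4 without alar plate 3. The GABAergic counts were 1 and 3 without hindbrain 1, 0 and 2 without hindbrain 2, hindbrain 3 or alar plate 1, 0 and 3 without alar plate 2, and 6 and 3 without alar plate 3. Slc17a6, the glutamate transporter VGLUT2, had 8.32, 18 and 15.7 RPKM in hindbrain and 42.6, 50.5 and 35.8 RPKM in alar plate (-1.60, SE 0.29, adjusted p = 0.0309), with the call lost without hindbrain 2, hindbrain 3, alar plate 1 or alar plate 2 (adjusted p 0.0703 to 0.114). The GABA synthesis gene Gad1 had 31.6, 28.8 and 24.8 RPKM in hindbrain and 23.2, 22.8 and 11 RPKM in alar plate, which did not overlap and missed the threshold (adjusted p = 0.268). Of 14 neuropeptide genes tested, 2 were called higher, Scg2 and Pdyn, and 2 lower, Tac1 and Cck, with 3 higher and 5 lower at an unadjusted p under 0.05. Pdyn, which encodes prodynorphin, was called higher, at 6.96, 12.9 and 11.7 RPKM in hindbrain against 0.78, 0.664 and 1.5 RPKM in alar plate (2.52, SE 0.26, adjusted p = 0.00566). Tac1, which encodes the precursor of substance P, had 0.922, 2.41 and 1.43 RPKM in hindbrain and 7.83, 12.9 and 6.64 RPKM in alar plate (-1.96, SE 0.30, adjusted p = 0.0192). Cck, which encodes cholecystokinin, had 0.121, 0.434 and 0.206 RPKM in hindbrain and 2.52, 3.37 and 1.62 RPKM in alar plate (-1.46, SE 0.22, adjusted p = 0.019). As in every called gene, the groups did not overlap for these peptide genes. Of the neuropeptides 0 were called lower without hindbrain 1, hindbrain 3 or alar plate 1 and after the gene-length correction, 1 without hindbrain 2, and 4 without alar plate 3, with 3 higher. Cbln1, a synaptic organizer of the cerebellum and hindbrain, had 72.7, 57.7 and 58.6 RPKM in hindbrain and 5.03, 5.21 and 11 RPKM in alar plate (3.05, SE 0.28, adjusted p = 0.00396). Cyp26b1, which degrades retinoic acid, had 25.5, 50.9 and 52.1 RPKM in hindbrain and 10.1, 10.3 and 2.13 RPKM in alar plate, without overlap but with an adjusted p of 0.0603, and of 0.0106 without alar plate 3.

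**Figure D5:**
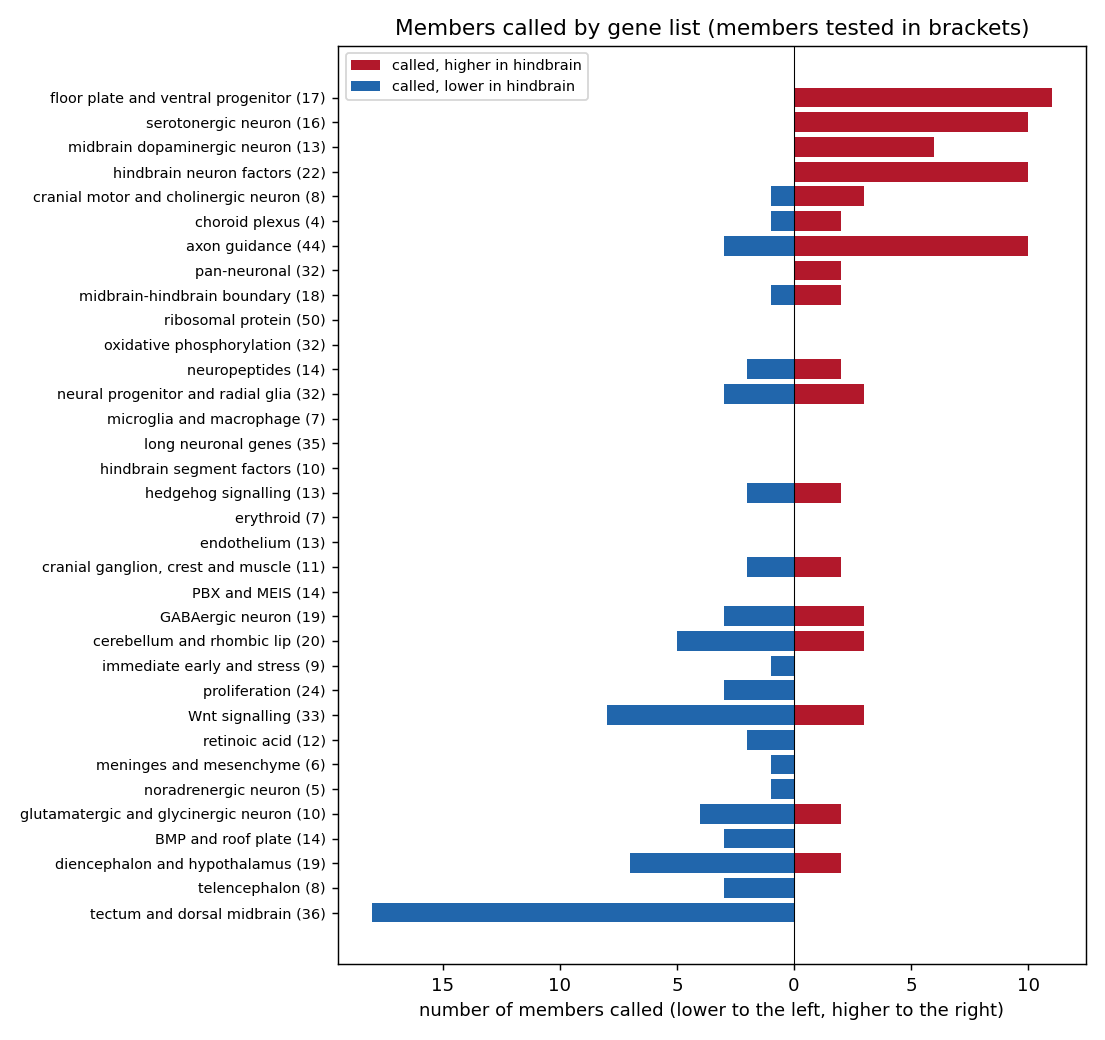
Number of members called higher in hindbrain (bars to the right) and lower in hindbrain (bars to the left) in each gene list with at least 4 members tested, with the number tested in brackets, ordered by the net share called. The floor plate list (11 of 17 higher) and the serotonergic list (10 of 16 higher) stand at the top, and the tectum and dorsal midbrain list (18 of 36 lower) at the bottom.

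Among markers of other tissues, the sum of the meningeal and mesenchymal genes separated the tissues, and the part of these markers in the results was not tested. No erythroid, endothelial or microglial gene was called, of 7, 13 and 7 tested, by limma or limma voom. Limma called 4.58% of all genes, so 0 in lists this small says little about these cells. At an unadjusted p under 0.05 limma gave 0, 1 and 0, against 11.8% higher and 9.1% lower of all genes. Meningeal and mesenchymal genes summed to 45.2 to 58.1 RPKM in hindbrain libraries and to 303, 99.8 and 187 RPKM in alar plate 1, 2 and 3, with Col1a1, a collagen of connective tissue, at 38.3 RPKM in alar plate 1 and at most 0.747 RPKM in hindbrain. Of 18 such genes 6 were tested, and 1 was called lower and 0 higher, with 3 lower and 0 higher at an unadjusted p under 0.05, and limma voom called the same numbers as limma. The called gene was Crabp2, a retinoic acid binding protein that is also on the retinoic acid list, with 49.0, 45.2 and 37.2 RPKM in hindbrain and 107, 87.8 and 125 RPKM in alar plate (-1.26, SE 0.17, adjusted p = 0.0143). The number called lower was 0 without hindbrain 2, hindbrain 3 or alar plate 1, and 2 without alar plate 2. Ribosomal protein genes had a median difference of -0.64 with 0 of 50 called, 8 lower at an unadjusted p under 0.05 and 0 called by limma voom, and 32 were called lower without alar plate 3, where the median was -0.30. Of all genes 8.85% were called lower without alar plate 3. A list of long neuronal genes had a median difference of 0.72 with 0 of 35 called, 8 higher and 1 lower at an unadjusted p under 0.05 and 0 called by limma voom, and the median was 0.21 without alar plate 3 and 0.19 after the length correction. The shortest 25% of all genes had a median difference of -0.25 and the longest 25% had 0.23, against -0.06 and 0.02 without alar plate 3.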

How the data were processed

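The authors deposited 1 table of RPKM values for 24264 genes in 15 libraries. Alignment was with Bowtie to build mm9, per the submitters' processing notes. The annotation, the counting method and its strand setting were not given in the sources used. No per-sample column was left out. The 3 hindbrain and 3 alar plate libraries were fitted with limma 3.58.1 (R 4.3.3) on log2 values computed from the deposited RPKM plus a pseudocount of 1, with a variance trend and region as the only factor. Genes needed 1 RPKM in 3 of the 6 libraries, and p-values were adjusted over 13024 genes by the Benjamini-Hochberg method.

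RPKM values step in whole reads, and of 16612 genes above 0 in at least 10 libraries, 99.9% gave whole reads in every library, within 0.02 to 0.15 reads. The reads gave relative gene lengths and depth. At the median gene length, 3 reads equalled 0.0742 to 0.0988 RPKM, a floor for counting error only. The length correction subtracted from each library a lowess trend (span 0.3) of its deviations with length. Scripts were tested on simulated data.

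Named genes were the 10 highest and 10 lowest differences among called genes whose libraries did not overlap and whose higher group averaged at least 5 RPKM, up to 4 called members of each of 36 lists, members that a sentence on a list turns on, and genes of position along the brain. A few genes that this rule names are not reported here. Of 703 list symbols, 700 were measured (older symbols matched through RefSeq synonyms) and 518 tested. The libraries, lists and rules were chosen with earlier results of these data known.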

Additional observations from a re-analysis of the deposited data

How the results depend on the processing

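The number of genes called was 597, and it was 646 after quantile normalization, 606 with median-ratio size factors, 497 with a pseudocount of 0.1, 609 with no filter and 556 with limma voom on recovered reads, the last chosen after seeing the data. It was 312 with a filter of 5 RPKM, 945 with the gene-length correction, 1347 with all 15 libraries in the fit and 4992 with array weights, which gave alar plate 3 a weight of 0.0445. Leaving out each library in turn gave 127 to 2520 genes, the highest without alar plate 3, and leaving out alar plate 3 and hindbrain 1 together, chosen after seeing the data, gave 4215. Fewer samples remain in each fit that leaves out a library, that without alar plate 3 included, and the cause of these moves was not tested.

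The replicate block gave 207 genes, and 452 with the gene-length correction. Deviations of same-numbered libraries from their group means had correlations of -0.02, 0.18 and -0.09. With 3 libraries per tissue and alar plate 3 set apart by gene length, these values cannot tell whether the numbers pair the samples. Sex-linked genes matched by number, with the Y-linked Kdm5d at 0, 1 and 760 reads in hindbrain and 1, 0 and 340 in alar plate. Unpaired samples could share this match, so it does not settle the pairing. Of 107 named called genes, 46 were called under every one of the 18 alternatives in which they could be fitted, and no named gene changed direction. edgeR and DESeq2, planned on recovered reads, were not run, and limma voom was the only fit on those reads. At 9047687 to 12440087 reads per library, 3 reads on a gene of median length equal 0.0742 to 0.0988 RPKM, and lower values are not resolved.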

Other observations

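Several genes chosen after their values were seen set hindbrain 1 apart from hindbrain 2 and 3. Sox14, a factor of GABAergic neurons in the midbrain and diencephalon, had 63.5, 14.0 and 8.99 RPKM in hindbrain 1, 2 and 3 and 32.9, 41.7 and 23.2 RPKM in alar plate. Npy, which encodes neuropeptide Y, had 0.295, 9.79 and 11.4 RPKM in hindbrain and 30.0, 14.0 and 11.2 RPKM in alar plate. Evx1, a homeobox factor of V0 interneurons, had 0.447, 5.79 and 6.54 RPKM in hindbrain and 1.97, 0.837 and 0.0657 RPKM in alar plate. For Sox14 hindbrain 1 lay above all the other libraries, and for Npy and Evx1 it lay below hindbrain 2 and 3.

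Alar plate 3 held further transcripts that the other 5 libraries held at low levels. Olig3, a basic helix-loop-helix factor of the dorsal midline and thalamus, was 51.0 RPKM in alar plate 3 and at most 1.27 RPKM in any of the others. Calb2, which encodes calretinin, was 37.1 RPKM in alar plate 3 and at most 6.19 RPKM in the others, and Rspo3, a Wnt agonist of the dorsal midline, was 18.8 RPKM against at most 1.27 RPKM. Hipk2, a long kinase gene, was 1.04 RPKM in alar plate 3 and 23.0 to 26.4 RPKM in the others.

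Genes of the sex chromosomes divided the 6 libraries within both tissues. Xist, the RNA of the inactive X, had 79.9, 61.7 and 0.216 RPKM in hindbrain and 71.2, 57.2 and 0.13 RPKM in alar plate, and the Y-linked Eif2s3y had 0, 0.0456 and 24.4 RPKM in hindbrain and 0.0785, 0 and 24.8 RPKM in alar plate. Each tissue thus had 1 library with Y-linked reads, which is also the library numbered 3.

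Of 20 cerebellar and rhombic lip genes tested, 3 were called higher and 5 lower, with 6 and 8 without alar plate 3, 2 and 4 without hindbrain 1, and 1 and 3 without any other single library. To set beside this list and the next lists, 3.46% of all genes were called higher and 1.13% lower. Of 4 choroid plexus genes, 2 were called higher, Sulf1 and Enpp2, and 1 lower, Otx2, and the number higher was 1 without hindbrain 2, hindbrain 3, alar plate 1 or alar plate 2. Of 11 genes of cranial ganglia, crest and muscle, 2 were called higher and 2 lower, with 0 and 2 without hindbrain 2, 0 and 1 without hindbrain 3, 1 and 2 without alar plate 1 or alar plate 2, and 4 and 3 without alar plate 3.

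Of 12 retinoic acid genes, 0 were called higher and 2 lower, and at an unadjusted p under 0.05 limma gave 3 and 3. The number lower was 0 without hindbrain 2 or hindbrain 3, 1 without hindbrain 1 or alar plate 1, and 3 without alar plate 3, with 1 higher. Of 14 BMP and roof plate genes, 0 were called higher and 3 lower, and at an unadjusted p under 0.05 limma gave 0 and 4. The number lower was 0 without hindbrain 1, hindbrain 3 or alar plate 1, 1 without hindbrain 2 or alar plate 2, and 4 without alar plate 3. Of 5 noradrenergic genes 1 was called lower, which was lost without hindbrain 2, hindbrain 3, alar plate 1 or alar plate 2, and of 9 immediate early and stress genes 1 was called lower, which was lost without any hindbrain library. Limma and limma voom called 0 of 10 hindbrain segment factors, 14 PBX and MEIS genes and 32 oxidative phosphorylation genes. Of all genes limma called 4.58%. At an unadjusted p under 0.05 limma gave 4 higher and 0 lower of the segment factors and 4 and 3 of the PBX and MEIS genes. It gave 0 of the oxidative phosphorylation genes, and 11.8% higher and 9.1% lower of all genes. Without alar plate 3 limma called 1 and 0, 3 and 4, and 1 and 1 of these lists in that order. The shares of all genes were then 10.5% higher and 8.85% lower.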
